A study of Mus musculus with 18 samples.

Results

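Smooth muscle and pericyte genes, 31 in all, were followed across 18 libraries of messenger RNA from hearts of mice in which the left anterior descending (LAD) coronary artery had been tied 3 days earlier, the operation that causes a myocardial infarction. The 31 genes were chosen by symbol from the count table, which lists 25230 symbols. The rule names symbols and no measured values, but the list was made with earlier results of these data known. All animals of the 6 groups were male C57BL/6J mice with the artery tied, and the sources used here give neither their age nor the dose. Each group holds 3 libraries: the atria, the infarcted part of the left ventricle (LV) or its non-infarcted part, from mice treated with liraglutide, which activates the receptor of the gut hormone GLP-1, or with PBS, a buffered saline. The labels mention sham-operated mice, which were not analysed here, so the non-infarcted LV comes from an infarcted heart and is not a healthy ventricle. The labels call the replicates biological but do not say whether each is a separate mouse or a pool, so the p-values measure the spread between these libraries.

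Mural cells wrap the endothelial tube of blood vessels: smooth muscle cells form the wall of arteries and veins, and pericytes sit on capillaries. Smooth muscle contracts when myosin light chain kinase phosphorylates the regulatory light chain of smooth muscle myosin, and it relaxes through nitric oxide, cyclic GMP and potassium channels that open on low ATP. The contractile genes are switched on by serum response factor (SRF) with its cofactor myocardin at promoter sites called CArG boxes. Pericytes carry the receptors Pdgfrb and Notch3, which read ligands made by endothelial cells, and express Rgs5, Abcc9, Higd1b and Vtn. In the heart several of the 31 genes are also made by other cells: Acta2 and Tagln by activated fibroblasts, and Myocd, Synpo2, Smtn and Abcc9 by cardiomyocytes.

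CArG boxes were looked for as the sites of SRF, the regulator of contractile genes named above. RefSeq promoter sequences of GRCm38.p6 were given for 23 of the 31 genes, and the 250 bases before each start were searched on both strands for the CArG box, for the CArG-like box, which has a single G or C in its A and T core, and for GTGGGAA, the sequence recognised by the Notch mediator RBPJ. The 30 bases around each box found, with the box in capitals, are:
Acta2, CArG-like box (chr19:34255438-34255467, minus strand): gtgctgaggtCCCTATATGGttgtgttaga
Acta2, CArG-like box (chr19:34255388-34255417, minus strand): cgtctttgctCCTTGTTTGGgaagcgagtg
Myl9, CArG box (chr2:156775293-156775322, plus strand): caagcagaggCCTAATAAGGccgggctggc
Myl9, CArG-like box (chr2:156775355-156775384, plus strand): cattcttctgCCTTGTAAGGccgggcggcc
Trpc6, CArG box (chr9:8544010-8544039, plus strand): cctttcgatcCCTTTAAAGGtggggatcgt
Each is written 5′ to 3′ on the strand of its gene, and the boxes lie 84 and 34 bases (Acta2), 161 and 99 bases (Myl9) and 122 bases (Trpc6) before the RefSeq start. Both Acta2 stretches lie inside the gene as the GENCODE annotation places it, so the window depends on which start is used. The searched windows of Mylk and Smtn, and the Gucy1a1 window that held GTGGGAA, lie wholly inside their GENCODE genes. The CArG box was found in 2 of the 23 genes, against 1.62% of 27025 genes with a promoter in the table. The CArG-like box was found in 2 of the 23, against 8.33%. GTGGGAA was found in 1 of the 23, Gucy1a1, against 6.18%. Myh11, Tagln, Actg2, Myocd, Pdgfrb, Heyl, Aoc3 and Higd1b had no promoter sequence and were not searched. A match in such a window is a description of letters, and the other genes may hold boxes outside it.

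The libraries held 4280459 to 21853482 counts, and the 31 genes together took 0.189 to 0.411% of them. Levels are given as CPM, counts scaled to the library total. Fold changes and their standard errors (SE) come from edgeR's quasi-likelihood test with TMM scaling over all genes tested in a comparison, and a gene is said to have risen or fallen where the Benjamini-Hochberg adjusted p of that test is under 0.05. Without TMM scaling the median log2 fold change over all genes shifted by 0.128 in atria against non-infarcted LV with PBS and by less than this elsewhere, and no gene of the 31 that passed the test changed direction. The regions matched their labels for the ventricular light chain Myl2, at 7695 to 11179 CPM in the 12 LV libraries and 2.08 to 924 CPM in the 6 atrial ones. Atria with liraglutide replicates 1 and 3 held the most of it among the atria, 275 and 924 CPM, and atria with PBS replicate 2 stood apart with adipocyte RNA, with Adipoq at 79.2 CPM against 0.319 and 1.02 CPM in the other 2. Surfactant gene Sftpc, a marker of lung tissue, was at 0 in 17 of 18 libraries, where 3 counts would be 0.137 to 0.701 CPM. In bulk tissue, fewer cells of a type and less RNA per cell cannot be told apart, and this holds for every comparison.

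Which members led differed between regions when levels were put on a common scale of mean CPM per kilobase of exon. In non-infarcted LV with PBS the highest were Rgs5 at 138, Abcc9 at 51.2 and Smtn at 42.4 CPM per kilobase. In infarcted LV with PBS they were Rgs5 at 313, Acta2 at 60.0 and Abcc9 at 56.7 CPM per kilobase. In atria with PBS 2 contractile genes led, Myl9 at 218 and Tpm2 at 123 CPM per kilobase, while Rgs5 was at 34.1. With liraglutide the first of each region was the same: Rgs5 at 155 in non-infarcted LV and 357 in infarcted LV, and Myl9 at 188 in atria, all in CPM per kilobase.

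The first comparison asked how the vessel wall genes differ between the infarcted and the non-infarcted part of the LV. With PBS, infarcted LV had higher levels of genes that control contraction (5 of 7 tested), of transcription and signalling genes (3 of 4 tested), of surface and adhesion genes (5 of 5 tested) and of other mural markers (4 of 4 tested), by 1.34-fold (Cspg4) to 2.63-fold (Heyl). Most genes of the contractile apparatus did not pass the test. With PBS, 18 of the 30 members tested rose and 2 fell, and with liraglutide 21 rose and 1 fell. All 18 that rose with PBS also rose with liraglutide. Over all genes, 25.7% rose and 21.7% fell with PBS (12831 tested), and 27.3% rose and 22.4% fell with liraglutide (13022 tested). The median log2 fold change of the members was 0.78 with PBS and 0.83 with liraglutide, against -0.022 and -0.022 over all genes tested. Trpc6, a calcium-permeable channel, had 0 to 0.650 CPM and was too low to be tested anywhere.

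**Figure D1:**
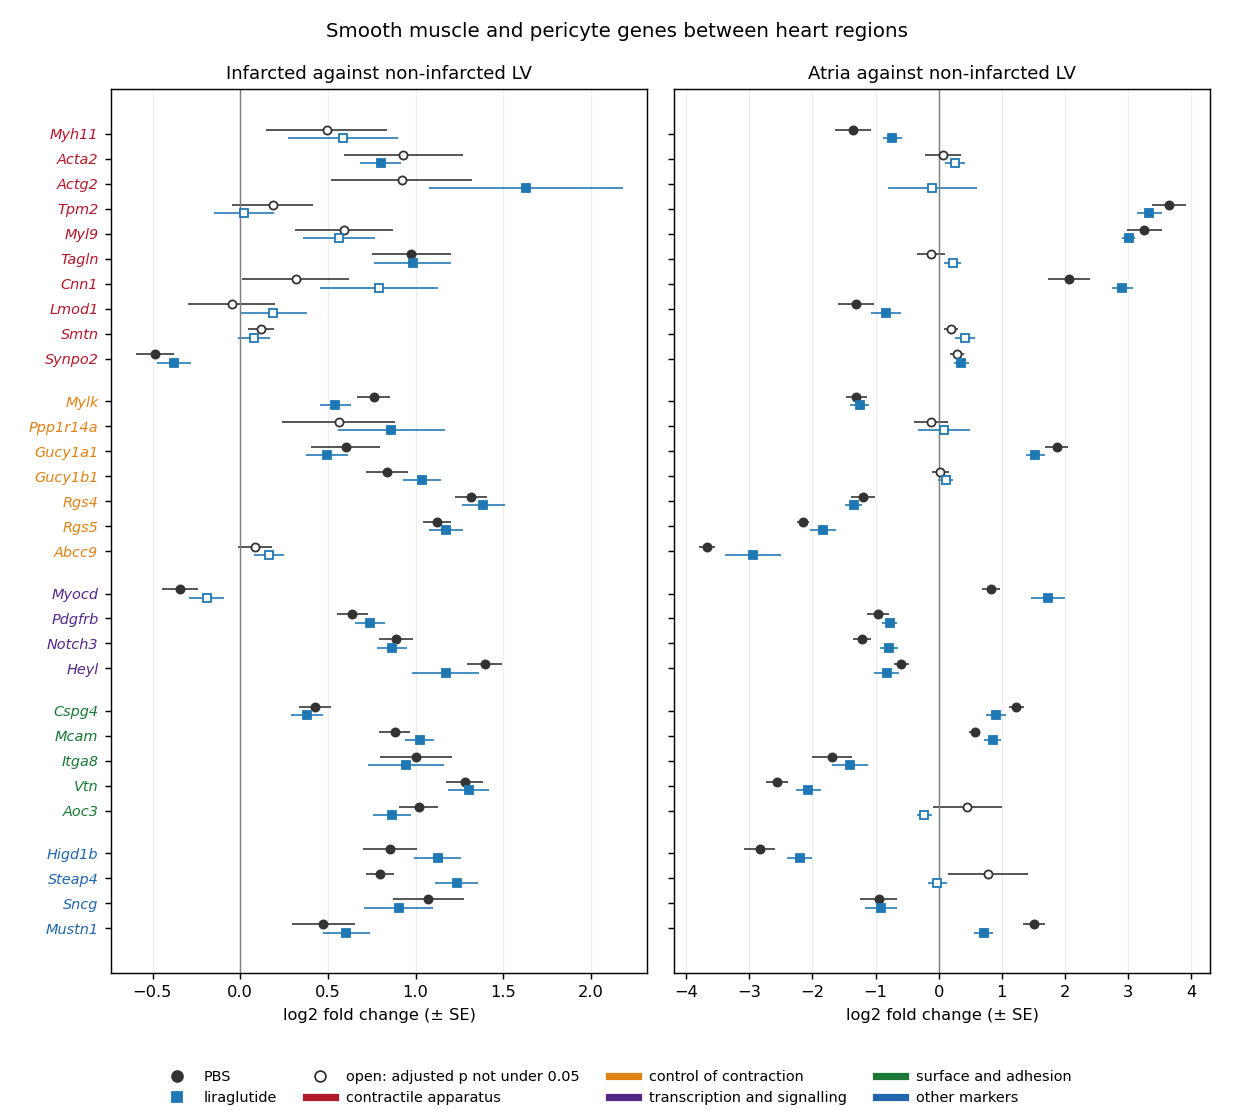
Log2 fold change of the members in infarcted (left) and atrial (right) tissue against non-infarcted LV, with PBS (circles) and liraglutide (squares). Bars are ± 1 SE from 3 against 3 libraries, filled symbols have an adjusted p under 0.05, and the 2 panels have different scales. On the left the surface, adhesion and other marker genes all lie right of 0, and on the right the members spread to both sides, from Abcc9 at -3.67 to Tpm2 at 3.65 with PBS.

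Among the genes that control contraction, 5 of 7 tested rose with PBS and 6 of 7 with liraglutide. Rgs4 (chr1:169741477-169747642, minus strand), a regulator that shortens signalling by G proteins, had 23.2, 21.4 and 20.4 CPM in non-infarcted LV and 56.8, 55.8 and 55.8 CPM in infarcted LV with PBS. With liraglutide it had 22.2, 23.6 and 19.8 CPM in non-infarcted and 54.0, 49.0 and 72.8 CPM in infarcted LV. The groups did not overlap, and Rgs4 was 2.49-fold higher with PBS (adjusted p = 3.92e-08, log2 fold change 1.32 ± 0.09 SE) and 2.62-fold higher with liraglutide (adjusted p = 6.56e-07, log2 fold change 1.39 ± 0.12 SE).

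Rgs5 (chr1:169655501-169695813, plus strand), a regulator of the same family, a standard pericyte marker and also on chromosome 1, had 693, 612 and 582 CPM in non-infarcted and 1384, 1516 and 1372 CPM in infarcted LV with PBS. With liraglutide the values were 681, 744 and 694 CPM in non-infarcted and 1566, 1427 and 1869 CPM in infarcted LV. Every infarcted library was above every non-infarcted one, and the rise was 2.18-fold with PBS (adjusted p = 4.76e-08, log2 fold change 1.12 ± 0.08 SE) and 2.26-fold with liraglutide (adjusted p = 1.79e-07, log2 fold change 1.17 ± 0.10 SE). Mylk, the light chain kinase, and the soluble guanylate cyclase subunits Gucy1a1 and Gucy1b1, the receptor of nitric oxide, rose by log2 fold changes of 0.76, 0.60 and 0.84 with PBS and 0.54, 0.49 and 1.04 with liraglutide. Gucy1a1 did not pass with PBS when any single library other than non-infarcted LV replicate 1 was left out. Ppp1r14a, an inhibitor of myosin phosphatase, passed with liraglutide only (log2 fold change 0.86, SE 0.31; with PBS 0.56, SE 0.32), at 0.955 to 3.99 CPM over the 18 libraries, and was lost with DESeq2, in the fit of all 18 libraries and under 4 of the 6 single omissions. Abcc9, the regulatory subunit of ATP-sensitive potassium channels, was the one gene of this role that passed in neither, at 429 ± 49.5 and 474 ± 12.4 CPM (mean ± SD, n = 3) with PBS and a log2 fold change of 0.08 (SE 0.10).

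Of the 4 genes of transcription and signalling, Pdgfrb, Notch3 and Heyl rose in both treatments. Heyl (chr4:123233556-123249875, plus strand), a transcriptional repressor induced by Notch signalling, had 21.2, 20.2 and 20.3 CPM in non-infarcted and 54.5, 52.6 and 62.8 CPM in infarcted LV with PBS, and 17.1, 25.4 and 25.7 CPM in non-infarcted and 65.3, 43.3 and 47.9 CPM in infarcted LV with liraglutide. Both pairs of groups were apart, by 2.63-fold (adjusted p = 4.46e-08, log2 fold change 1.39 ± 0.10 SE) and 2.26-fold (adjusted p = 9.72e-04, log2 fold change 1.17 ± 0.19 SE). Notch3, the Notch receptor of mural cells, rose by 0.89 with PBS and 0.87 with liraglutide, and Pdgfrb, the receptor for PDGF-B, by 0.64 and 0.74, all on the log2 scale. Myocd, which encodes myocardin, went the other way: it fell with PBS (adjusted p = 0.0131, log2 fold change -0.34 ± 0.10 SE) from 56.1 ± 5.41 to 46.2 ± 2.53 CPM (mean ± SD, n = 3) and did not pass with liraglutide (adjusted p = 0.128, log2 fold change -0.19 ± 0.10 SE). The fall with PBS did not pass without infarcted LV replicate 2 (adjusted p = 0.0715), without non-infarcted LV replicate 3 (adjusted p = 0.0555) or in a fit of all 18 libraries (adjusted p = 0.207), and over all alternatives its adjusted p ran from 0.00116 to 0.207. With liraglutide Myocd passed when non-infarcted LV replicate 1 was left out.

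All 5 surface and adhesion genes rose in both treatments. Vtn (chr11:78499091-78502324, plus strand), which encodes the adhesion protein vitronectin and is expressed by pericytes, had 23.8, 20.3 and 18.1 CPM in non-infarcted and 48.1, 58.0 and 52.1 CPM in infarcted LV with PBS. With liraglutide it had 22.2, 19.6 and 18.2 CPM in non-infarcted and 55.6, 40.2 and 55.2 CPM in infarcted LV. The infarcted libraries were all higher, by 2.43-fold (adjusted p = 2.08e-07, log2 fold change 1.28 ± 0.11 SE) and 2.47-fold (adjusted p = 3.78e-07, log2 fold change 1.30 ± 0.12 SE). Aoc3, the vascular amine oxidase, Itga8, an integrin chain, Mcam, an adhesion molecule shared with endothelium, and Cspg4, the NG2 proteoglycan of pericytes, rose by 1.02, 1.003, 0.88 and 0.43 with PBS and by 0.87, 0.95, 1.02 and 0.38 with liraglutide, on the log2 scale. The 4 remaining markers also rose in both: the pericyte marker Higd1b by 0.85 and 1.13, the metalloreductase Steap4 by 0.80 and 1.23, gamma-synuclein (Sncg) by 1.07 and 0.90, and Mustn1, a small nuclear protein of muscle, by 0.48 and 0.61. Steap4 did not pass with PBS in the fit of all 18 libraries (adjusted p = 0.135, with 1.20e-16 to 0.135 over all alternatives), and Mustn1 was lost with PBS under DESeq2 and under most single omissions of a library.

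In the contractile apparatus few genes passed the test. Of its 10 genes, 1 rose (Tagln) and 1 fell (Synpo2) with PBS, against 25.7% and 21.7% over all genes. With liraglutide 3 rose (Tagln, Acta2, Actg2) and 1 fell (Synpo2), against 27.3% and 22.4%. The log2 fold change was positive in 8 of the 10 genes with PBS (median 0.40) and in 9 of 10 with liraglutide (median 0.57). Acta2 (chr19:34241090-34255590, minus strand), smooth muscle alpha-actin, whose promoter boxes are printed above, had 55.1, 100.5 and 44.5 CPM in non-infarcted and 103, 148 and 145 CPM in infarcted LV with PBS, and 78.9, 64.8 and 70.3 CPM in non-infarcted and 154, 109 and 114 CPM in infarcted LV with liraglutide. The infarcted libraries were above the non-infarcted ones in both treatments, by 1.91-fold without passing the test with PBS (adjusted p = 0.0887, log2 fold change 0.93 ± 0.34 SE) and by 1.74-fold with liraglutide (adjusted p = 1.24e-04, log2 fold change 0.80 ± 0.12 SE). With PBS the highest non-infarcted library, replicate 2 at 100.5 CPM, nearly met the lowest infarcted one at 103 CPM. Without that replicate Acta2 passed (log2 fold change 1.30, adjusted p = 1.86e-04), as it did with DESeq2 (adjusted p = 0.0341) and in the fit of all 18 libraries (adjusted p = 0.00761). The adjusted p of Acta2 ran from 1.86e-04 to 0.224 over all alternatives.

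Myh11 (chr16:14194535-14291372, minus strand), the smooth muscle myosin heavy chain and the most specific marker of differentiated smooth muscle in the group, had 53.1, 59.1 and 24.6 CPM in non-infarcted and 69.2, 54.9 and 79.4 CPM in infarcted LV with PBS. With liraglutide it had 50.4, 51.3 and 47.6 CPM in non-infarcted and 114, 51.5 and 62.6 CPM in infarcted LV. The groups overlapped with PBS, and the difference did not pass in either treatment (adjusted p = 0.309, log2 fold change 0.49 ± 0.35 SE with PBS; adjusted p = 0.19, log2 fold change 0.59 ± 0.32 SE with liraglutide). Tagln, an actin-binding protein of smooth muscle, rose by 0.98 in PBS and 0.98 in liraglutide libraries on the log2 scale, with adjusted p = 0.0137 and 0.00888; with PBS it was lost when non-infarcted LV replicate 1 or infarcted LV replicate 1 or 2 was left out, and with liraglutide when infarcted LV replicate 3 was left out or low counts were not filtered. Actg2, enteric gamma-actin, was at most 2.58 CPM in any library, and its rise with liraglutide (log2 fold change 1.63, SE 0.55) was lost without infarcted LV replicate 1 or 3.

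Synpo2 (chr3:123076519-123236149, minus strand), an actin-binding protein of Z-discs that cardiomyocytes also make, had 131, 133 and 158 CPM in non-infarcted and 91.3, 109.6 and 115 CPM in infarcted LV with PBS, and 129.6, 154 and 135 CPM in non-infarcted and 102, 121 and 103 CPM in infarcted LV with liraglutide. Every infarcted library was lower, by 1.401-fold (adjusted p = 0.00323, log2 fold change -0.49 ± 0.11 SE) and 1.30-fold (adjusted p = 0.00531, log2 fold change -0.38 ± 0.10 SE). The other 6 contractile genes passed in neither treatment: with PBS the log2 fold changes were 0.59 for Myl9, the regulatory light chain, 0.32 for calponin (Cnn1), 0.18 for beta-tropomyosin (Tpm2), 0.12 for smoothelin (Smtn) and -0.05 for leiomodin (Lmod1), which changed sign without TMM scaling, and Myh11 is the sixth. With liraglutide, fitting the number in the labels as a block gave calls for Cnn1 (adjusted p = 0.0497 against 0.0708 unpaired) and Myl9 (adjusted p = 0.00421 against 0.0529). Over all alternatives the adjusted p ran from 0.0088 to 0.574 for Cnn1 and from 4.37e-04 to 0.167 for Myl9. With PBS Myl9 passed when non-infarcted LV replicate 2 or 3 was left out.

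**Figure D2:**
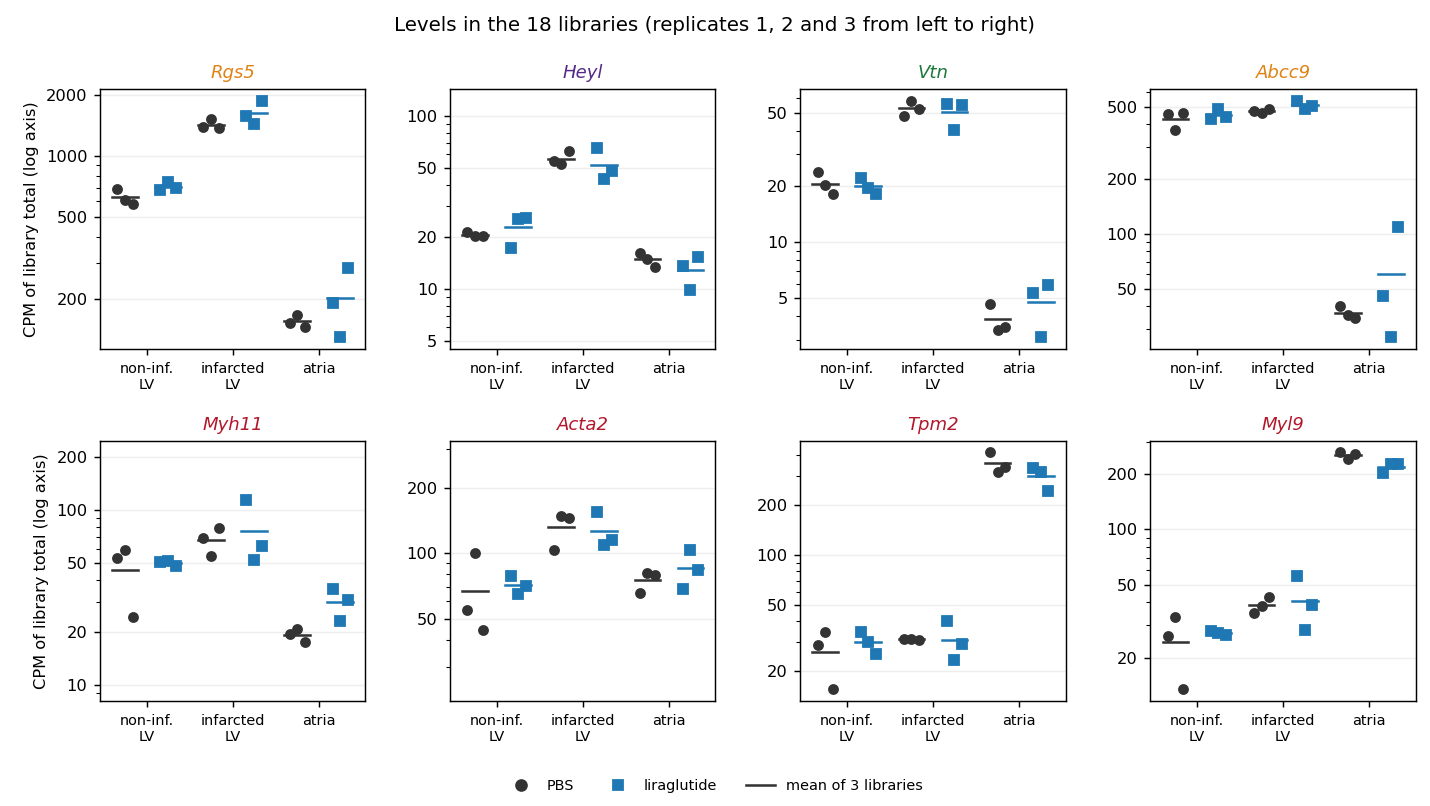
CPM of the library total (log axis) of 8 members in each of the 18 libraries, grouped by region, with PBS as circles and liraglutide as squares. Horizontal lines are means of 3 libraries. Rgs5, Heyl and Vtn are highest in infarcted LV and lowest in atria, Abcc9 is close in both LV regions and low in atria, and Tpm2 and Myl9 are high in atria alone among these regions.

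Spread between replicates was larger for the contractile genes in particular groups. In non-infarcted LV with PBS the median coefficient of variation of 9 contractile genes (Actg2, too low in some groups, is left out here) was 37.0%, against 9.89 to 18.9% for the other roles. In that group replicate 3 was the lowest and replicate 2 the highest for Myh11, Acta2, Tpm2, Myl9 and Tagln. Myl9, for example, had 26.3, 33.2 and 13.4 CPM and Tpm2 28.6, 34.3 and 15.5 CPM, while Rgs5 in the same libraries ranged from 582 to 693 CPM. In infarcted LV with liraglutide the same 9 genes had a median coefficient of variation of 27.9%, against 11.9 to 16.1% for the other roles, and replicate 1 was the highest for the same 5 genes. In non-infarcted LV with liraglutide the figure was 9.19% and in infarcted LV with PBS 11.8%. The elastic vessel wall list, a marker of larger vessels, summed to 528, 600.5 and 480.0 CPM in non-infarcted LV with PBS and 1073, 1094 and 1258 CPM in infarcted LV with liraglutide, and its part in the spread was not tested.

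**Figure D3:**
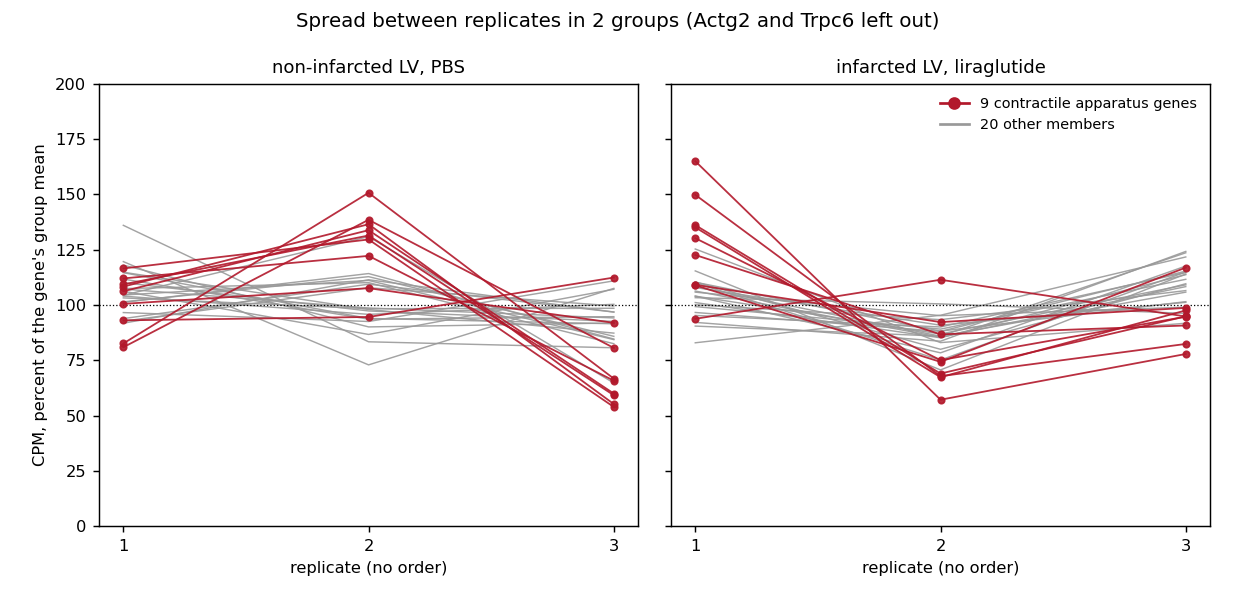
CPM of 29 members in each replicate as percent of the gene's mean in its group, for non-infarcted LV with PBS (left) and infarcted LV with liraglutide (right). Lines join the values of 1 gene, red for 9 genes of the contractile apparatus and grey for 20 other members; most red lines are lowest in replicate 3 on the left and highest in replicate 1 on the right.

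Markers of other cells moved with the infarct comparison. All 10 endothelial markers rose in both treatments, and their summed level was 2781 to 2981 CPM in infarcted and 1377 to 1471 CPM in non-infarcted LV with PBS, with Pecam1 at 411, 479.6 and 434 against 239.5, 246 and 225 CPM. All 11 fibroblast markers tested rose in both, to 1914 to 2258 from 738 to 960.0 CPM with PBS, with Postn at 88.9, 172 and 93.9 against 43.0, 57.2 and 31.2 CPM. Of 10 cardiomyocyte markers 9 fell with PBS and 8 with liraglutide, to 93977 to 100057 from 120024 to 132264 CPM with PBS. Leukocyte markers rose in 6 and 8 of 8 tested (summed 323 to 484 against 161 to 214 CPM with PBS), and the elastic vessel wall genes in 4 and 5 of 5 (summed 1148 to 1356 against 480.0 to 600.5 CPM). The part of these cell types in the rise of the mural genes was not tested.

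Pathway partners of the members were counted in the same way. For all these lists, the shares over all genes were 25.7% higher and 21.7% lower with PBS, and 27.3% and 22.4% with liraglutide. Of 13 other Notch ligands, receptors and targets, 11 rose with PBS and 12 with liraglutide, and none fell. With PBS the smallest p-values belonged to the receptor Notch1 (log2 fold change 1.11, SE 0.08), the target Hey1 (1.60, SE 0.13) and the ligands Jag1 (1.12, SE 0.10) and Dll1 (1.68, SE 0.20). With liraglutide they belonged to Notch1 (1.02), Notch2 (0.77), Dll1 (1.52) and Jag2 (0.85). Of 5 PDGF genes, 4 rose with PBS and 3 with liraglutide. Pdgfb, the endothelial ligand of Pdgfrb, rose by 0.66 and 0.67, and Pdgfra, the receptor of fibroblasts, by 0.76 and 0.77 on the log2 scale. Pdgfd rose by 0.40 and 0.44, and Pdgfa rose by 0.41 with PBS and did not pass with liraglutide (0.32, SE 0.13).

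Of 15 SRF cofactors and targets, 10 rose and 3 fell with PBS, and 10 rose and 2 fell with liraglutide. The targets Cald1 (caldesmon), Flna (filamin A), Csrp1 and Pdlim7 had the smallest p-values in both, with log2 fold changes of 1.09, 0.98, 1.07 and 1.04 with PBS. These genes are made by fibroblasts and endothelium as well as by smooth muscle. Of 13 tested genes of nitric oxide and cyclic GMP, 8 rose and 1 fell with PBS and 9 rose and 1 fell with liraglutide. They were led by the natriuretic peptide receptor Npr1 (1.20 with PBS), the nitric oxide synthases Nos3 (1.10) and Nos2 (1.04) and the cyclic GMP kinase substrate Vasp (0.86).

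Of 13 tested ion channel and myosin phosphatase genes, 6 rose and 4 fell in both treatments. The pore subunits that pair with Abcc9 moved apart. Kcnj8, the pore of the vascular potassium channel, had 31.3, 26.5 and 35.1 CPM in non-infarcted and 76.2, 78.2 and 72.7 CPM in infarcted LV with PBS and rose 2.36-fold (adjusted p = 6.65e-07, log2 fold change 1.24 ± 0.11 SE). Kcnj11, the pore of the cardiomyocyte channel, had 182, 174 and 152 CPM in non-infarcted and 97.8, 101 and 99.99 CPM in infarcted LV and fell 1.76-fold (adjusted p = 6.17e-07, log2 fold change -0.82 ± 0.08 SE). With liraglutide the log2 fold changes were 1.49 and -0.92. The calcium release channel gene Itpr1 rose by 0.85 on the log2 scale with PBS.

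The second comparison set the atria against non-infarcted LV. It shares its non-infarcted libraries with the infarct comparison. Over both treatments, Rgs5, Abcc9, Higd1b and Vtn were 3.57- to 12.7-fold lower in atria, and the contractile genes Tpm2, Myl9 and Cnn1 were 4.17- to 12.5-fold higher. Other genes of pericytes went either way: Pdgfrb and Notch3 fell less, and Cspg4 rose. The contractile genes were divided too: Myh11 and Lmod1 fell in both treatments, and Acta2, Tagln and Smtn passed in neither. With PBS, 8 of 29 members tested rose and 13 fell, and with liraglutide 9 of 30 rose and 13 fell. The 8 and the 13 of PBS were called in the same direction with liraglutide. Over all genes, 26.3% rose and 25.6% fell with PBS (13250 tested), and 24.6% rose and 22.9% fell with liraglutide (13431 tested). The members' median log2 fold change was -0.12 and -0.06, against 0.0068 and 0.0082 over all genes.

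In the contractile apparatus 3 of 9 tested genes rose and 2 fell with PBS, against 26.3% and 25.6% over all genes. With liraglutide 4 of 10 rose and 2 fell, against 24.6% and 22.9%. Tpm2 (chr4:43514711-43523765, minus strand), beta-tropomyosin, had 28.6, 34.3 and 15.5 CPM in non-infarcted LV and 416, 314 and 339 CPM in atria with PBS, and 34.4, 29.9 and 25.4 CPM in non-infarcted LV and 333, 318 and 243 CPM in atria with liraglutide. The atrial libraries were far above the LV libraries, by 12.5-fold (adjusted p = 3.75e-05, log2 fold change 3.65 ± 0.27 SE) and 10.1-fold (adjusted p = 3.41e-06, log2 fold change 3.33 ± 0.20 SE). Myl9 (chr2:156775420-156781658, plus strand), the regulatory light chain with the CArG box printed above, had 26.3, 33.2 and 13.4 CPM in non-infarcted LV and 263, 242 and 256 CPM in atria with PBS. With liraglutide it had 27.9, 27.1 and 26.5 CPM in non-infarcted LV and 203, 226 and 227 CPM in atria. Again no libraries overlapped, and Myl9 was 9.55-fold higher with PBS (adjusted p = 8.74e-05, log2 fold change 3.26 ± 0.28 SE) and 8.05-fold higher with liraglutide (adjusted p = 1.18e-07, log2 fold change 3.01 ± 0.10 SE).

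Cnn1 (chr9:22099216-22109630, plus strand), calponin, which binds actin and slows myosin, had 2.53, 4.33 and 2.52 CPM in non-infarcted LV and 9.998, 12.2 and 21.1 CPM in atria with PBS, and 2.28, 2.87 and 2.92 CPM in non-infarcted LV and 20.1, 20.1 and 20.2 CPM in atria with liraglutide. It was 4.17-fold higher with PBS (adjusted p = 8.73e-04, log2 fold change 2.06 ± 0.34 SE) and 7.49-fold higher with liraglutide (adjusted p = 1.31e-06, log2 fold change 2.91 ± 0.16 SE). The heavy chain went the other way. Myh11 had 19.5, 20.9 and 17.7 CPM in atria with PBS and 35.5, 23.4 and 30.6 CPM with liraglutide, against the LV values given above, and fell 2.55-fold (adjusted p = 0.00652, log2 fold change -1.35 ± 0.28 SE) and 1.67-fold (adjusted p = 0.00282, log2 fold change -0.74 ± 0.15 SE). With liraglutide this did not pass in the fit of all 18 libraries (adjusted p = 0.0568, with 6.82e-05 to 0.0568 over all alternatives). Lmod1, which builds actin filaments in smooth muscle, fell with it (log2 fold changes -1.31 and -0.83), though with liraglutide not without non-infarcted LV replicate 1 (adjusted p = 0.0562, with 0.00309 to 0.0562 over all alternatives). Acta2 had 65.7, 81.2 and 79.7 CPM with PBS and 68.3, 103 and 83.6 CPM with liraglutide, overlapped non-infarcted LV in both treatments and did not pass (adjusted p = 0.869, log2 fold change 0.06 ± 0.28 SE; with liraglutide adjusted p = 0.202, log2 fold change 0.26 ± 0.16 SE). Its direction with PBS turned when atria replicate 3 or non-infarcted LV replicate 1 or 3 was left out, and it passed without non-infarcted LV replicate 2 (log2 fold change 0.44). Tagln and Smtn passed in neither treatment. Smtn passed with liraglutide under DESeq2, in the fit of all 18 libraries, with library totals and without atria replicate 3, and with PBS under library totals. Tagln passed with PBS without non-infarcted LV replicate 3 and with liraglutide without atria replicate 3. Synpo2 rose with liraglutide only (log2 fold change 0.36, SE 0.11; with PBS 0.29, SE 0.12). With the replicate block Synpo2 passed with PBS too (adjusted p = 0.0215 against 0.0599, with 0.00384 to 0.222 over all alternatives), and with liraglutide it was lost under 4 of the 6 single omissions. Actg2, tested with liraglutide only, did not pass.

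Among the genes that control contraction, Gucy1a1 alone rose, and Mylk, Rgs4, Rgs5 and Abcc9 fell in both treatments. Gucy1a1 (chr3:82092427-82145789, minus strand), the alpha subunit of soluble guanylate cyclase, had 24.9, 15.2 and 14.7 CPM in non-infarcted LV and 75.4, 72.9 and 73.6 CPM in atria with PBS. With liraglutide it had 20.3, 21.5 and 20.9 CPM in non-infarcted LV and 46.4, 56.1 and 80.9 CPM in atria. All atrial libraries were higher, by 3.65-fold (adjusted p = 2.55e-05, log2 fold change 1.87 ± 0.18 SE) and 2.89-fold (adjusted p = 3.14e-05, log2 fold change 1.53 ± 0.15 SE). Its partner Gucy1b1, the beta subunit, which is needed for a working enzyme, had a log2 fold change of 0.02 (SE 0.14) with PBS and 0.11 (SE 0.11) with liraglutide and passed in neither.

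Abcc9 (chr6:142587862-142702315, minus strand) had 456, 372 and 459.7 CPM in non-infarcted LV and 40.1, 35.8 and 34.5 CPM in atria with PBS, and 427, 485 and 439 CPM in non-infarcted LV and 45.6, 26.9 and 109 CPM in atria with liraglutide. It fell 12.7-fold with PBS (adjusted p = 8.51e-09, log2 fold change -3.67 ± 0.13 SE) and 7.69-fold with liraglutide (adjusted p = 0.00192, log2 fold change -2.94 ± 0.44 SE). Atria with liraglutide replicate 3, at 109 CPM, is the atrial library with the most Myl2, and without it the log2 fold change was -3.56. In mouse heart the ventricular potassium channel carries the protein of Abcc9 and the atrial one that of Abcc8. Abcc8 had 50.5, 48.1 and 39.9 CPM in non-infarcted LV and 250.3, 190.2 and 196 CPM in atria with PBS, and rose 4.21-fold (adjusted p = 3.47e-07, log2 fold change 2.07 ± 0.13 SE).

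Rgs5 had 152, 167 and 146 CPM in atria with PBS and 190.1, 129 and 284 CPM with liraglutide, every value below the lowest LV library, and fell 4.42-fold (adjusted p = 3.59e-08, log2 fold change -2.15 ± 0.10 SE) and 3.57-fold (adjusted p = 1.59e-04, log2 fold change -1.84 ± 0.21 SE). Higd1b (chr11:102835849-102838040, plus strand), the pericyte marker, had 8.58, 7.90 and 8.27 CPM in non-infarcted LV and 0.945, 1.27 and 1.76 CPM in atria with PBS, and 7.66, 7.01 and 6.84 CPM in non-infarcted LV and 1.37, 1.34 and 1.92 CPM in atria with liraglutide. It fell 7.15-fold (adjusted p = 4.05e-06, log2 fold change -2.84 ± 0.25 SE) and 4.61-fold (adjusted p = 2.19e-05, log2 fold change -2.20 ± 0.20 SE). Vtn had 4.64, 3.40 and 3.51 CPM in atria with PBS and 5.34, 3.08 and 5.90 CPM with liraglutide, also below all LV libraries, and fell 5.90-fold (adjusted p = 7.38e-07, log2 fold change -2.56 ± 0.18 SE) and 4.19-fold (adjusted p = 3.14e-05, log2 fold change -2.07 ± 0.20 SE). Pdgfrb, Notch3 and Heyl fell as well, by 0.96, 1.22 and 0.60 on the log2 scale with PBS and by 0.77, 0.79 and 0.83 with liraglutide, as did Itga8 (log2 fold changes -1.69 and -1.40) and Sncg (-0.95 and -0.92). Sncg lost its call when non-infarcted LV replicate 1 was left out in either treatment or replicate 2 with liraglutide.

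Not every surface marker shared this direction. Cspg4, the NG2 proteoglycan, rose in atria by 1.23 with PBS and 0.90 with liraglutide, and Mcam by 0.57 and 0.85, on the log2 scale. Mustn1 rose by 1.51 and 0.71, and Myocd by 0.82 and 1.73, on the same scale. Steap4 and Aoc3 passed in neither treatment. Both were high in atria with PBS replicate 2, the library with adipocyte RNA: Steap4 had 76.3, 283 and 70.4 CPM and Aoc3 16.1, 40.7 and 8.78 CPM. Without that library their log2 fold changes with PBS went from 0.78 to -0.15 and from 0.45 to -0.33.

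Of the other cell types, the ventricular cardiomyocyte markers summed to 496 to 668 CPM in atria and 17227 to 18566 CPM in non-infarcted LV with PBS. The endothelial list did not move one way: 3 of 10 rose and 5 fell with PBS, 3 rose and 2 fell with liraglutide, and the sum was 1760.2 to 1870.3 CPM in atria against 1377 to 1471 CPM with PBS. Epicardial and mesothelial markers summed to 143 to 221 against 9.12 to 10.99 CPM, with 3 of 4 higher in both treatments, among them Upk3b at 52.7, 83.4 and 61.8 against 0.646, 0.564 and 0.1199 CPM. Of 11 fibroblast markers 4 rose and 2 fell with PBS, and all 8 leukocyte markers tested rose with PBS against 2 with liraglutide. Over all genes 26.3% rose and 25.6% fell with PBS, and 24.6% rose and 22.9% fell with liraglutide. The part of these cells in the atrial values was not tested.

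For pathway partners in atria, the shares over all genes were 26.3% higher and 25.6% lower with PBS, and 24.6% and 22.9% with liraglutide. With PBS 1 of 13 Notch genes rose and 6 fell, with Notch2 at 1.51 and Jag2, Notch4 and Hey2 at -1.31, -0.81 and -2.07 on the log2 scale. With liraglutide 1 rose and 5 fell. Of 5 PDGF genes 2 rose and 2 fell in both treatments: Pdgfc and Pdgfa rose by 2.66 and 1.04, and Pdgfd and Pdgfb fell by 2.12 and 0.74 with PBS. Of 15 SRF cofactors and targets 8 rose and 2 fell with PBS and 11 rose and 2 fell with liraglutide. Actn1, Tgfb1i1 and Cnn2 rose by 1.44, 1.70 and 0.97 with PBS, and Fhl2 fell by 2.37. With liraglutide Csrp2 rose by 2.68 and the calcium release channel gene Itpr1, of the channel list, by 0.62. Of 14 nitric oxide and cyclic GMP genes 5 rose and 3 fell with PBS and 5 rose and 2 fell with liraglutide. Mrvi1, the older symbol of the cyclic GMP kinase substrate IRAG, rose by 2.81, Nos3 by 1.16 and the phosphodiesterase Pde9a by 1.37, while Nos2 fell by 2.39. Of 13 channel and phosphatase genes 2 rose and 6 fell with PBS and 4 rose and 7 fell with liraglutide, with Kcnj8 at -1.49 and Cacna1c at -0.998 with PBS.

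The third comparison, the one the series is named for, asked what liraglutide did within a region. In edgeR's test no member passed in any of the 3 regions, and none of the genes of the 5 pathway lists did. In atria 1 of 13530 genes passed (0.00739%) and 6.87% had an unadjusted p under 0.05. In infarcted LV 0% of 12988 genes passed and 5.24% had an unadjusted p under 0.05, and in non-infarcted LV 0% of 12919 and 4.34%. Of the members, 8 of 29 had an unadjusted p under 0.05 in atria, 4 of 30 in infarcted LV and 2 of 30 in non-infarcted LV. These are values that did not pass the correction, and missing it does not show that a gene was unchanged.

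Markers of other cells leaned to one side or the other in atria, though none passed the test. All 10 cardiomyocyte markers had positive log2 fold changes (median 0.19, summed 106839 to 112846 CPM with liraglutide against 95937 to 108611 CPM with PBS). The ventricular cardiomyocyte markers summed to 454 to 1967 against 496 to 668 CPM, with Hand1 at 0 in every atrial library. All 8 leukocyte markers tested had negative values (median -0.55, summed 171 to 686 against 415 to 1006 CPM). So did all 5 adipocyte markers tested (median -2.77, summed 979 to 1016 against 1167 to 1993 CPM). Adipoq, at 4.84, 1.61 and 3.89 CPM with liraglutide and 1.02, 79.2 and 0.319 CPM with PBS, was high in PBS replicate 2 only. The same list summed to 755 to 826 CPM in non-infarcted LV with PBS. There, 2 of its 7 genes were high enough to be tested against infarcted LV, so the sum does not measure adipocyte RNA alone. The members had a median log2 fold change of 0.09, with 20 of 29 positive, against -0.0028 over all genes. Cardiomyocytes also make Myocd and Abcc9, and the part of these cells in the members' values was not tested beyond leaving out libraries.

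**Figure D4:**
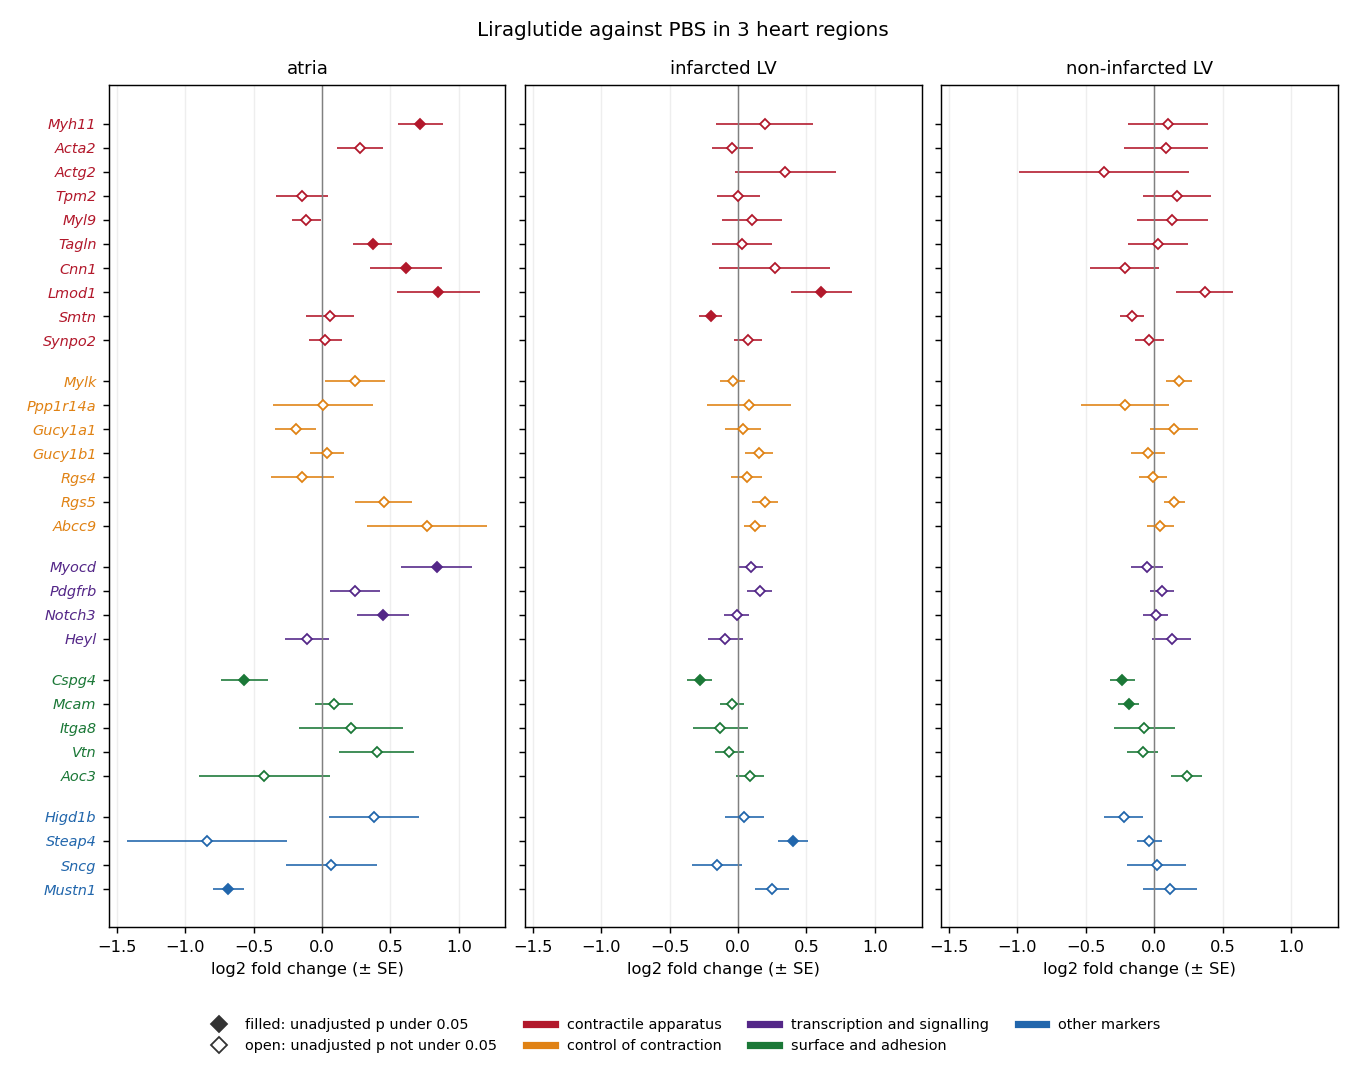
Log2 fold change (± 1 SE, 3 against 3 libraries) of liraglutide against PBS in atria, infarcted LV and non-infarcted LV, coloured by role. Filled symbols have an unadjusted p under 0.05 and none has an adjusted p under 0.05; Cspg4 lies left of 0 in all 3 regions, and atria hold the widest range, from Steap4 at -0.84 to Lmod1 at 0.85.

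In atria the smallest p belonged to Mustn1 (chr14:30879200-30881610, plus strand), with 30.7, 30.2 and 29.5 CPM in PBS and 18.1, 16.1 and 18.4 CPM in liraglutide libraries. All 3 liraglutide values were lower, 1.61-fold on average (log2 fold change -0.68, SE 0.11, unadjusted p = 2.13e-04, adjusted p = 0.363). DESeq2 gave it an adjusted p = 0.00527, and the edgeR fit of all 18 libraries 0.038; over all alternatives it ran from 0.00527 to 0.933. Myh11 had 19.5, 20.9 and 17.7 CPM with PBS and 35.5, 23.4 and 30.6 CPM with liraglutide, all 3 higher (log2 fold change 0.72, SE 0.16, adjusted p = 0.403; with DESeq2 adjusted p = 0.0384, and 0.0384 to 1 over all alternatives).

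Myocd (chr11:65176561-65269989, minus strand), myocardin, had 116, 91.9 and 117 CPM with PBS and 218, 195 and 124 CPM with liraglutide in atria. The lowest liraglutide library, replicate 3, was just above the highest PBS library, and the other 2 were well above it (log2 fold change 0.84, SE 0.26, adjusted p = 0.55; with DESeq2 adjusted p = 0.0467). Replicate 3 is the atrial library with the most Myl2, and without it the log2 fold change of Myocd was 1.09 and the adjusted p = 0.0164. Leaving out both this library and the one with adipocyte RNA gave 0.96 and an adjusted p = 0.0103, and over all alternatives the adjusted p of Myocd ran from 0.0103 to 1. Liraglutide replicate 1, which with replicate 3 held the most Myl2 among the atria and had the highest Myocd, stayed in both fits. The 4 further contractile or receptor genes with unadjusted p under 0.05 in atria had higher means with liraglutide: Lmod1 (log2 fold change 0.85, SE 0.30), Tagln (0.37, SE 0.14), Notch3 (0.44, SE 0.19) and Cnn1 (0.61, SE 0.26), with adjusted p between 0.607 and 0.718. Single libraries decided 4 further values that did not pass. Without PBS replicate 2, the library with adipocyte RNA, the log2 fold change of Steap4 went from -0.84 to 0.09 and that of Aoc3 from -0.42 to 0.36. Without liraglutide replicate 3 that of Abcc9 went from 0.77 to 0.14 and that of Rgs5 from 0.45 to 0.21.

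Cspg4 (chr9:56865033-56899870, plus strand) was lower with liraglutide in each region without passing in any. In atria it had 95.1, 74.0 and 83.0 CPM with PBS and 59.9, 52.7 and 45.2 CPM with liraglutide (log2 fold change -0.57, SE 0.17, adjusted p = 0.528). In infarcted LV it had 45.4, 48.5 and 42.8 CPM with PBS and 40.4, 34.0 and 37.9 CPM with liraglutide (log2 fold change -0.28, SE 0.09, adjusted p = 0.789). In non-infarcted LV it had 30.9, 36.0 and 31.9 CPM with PBS and 28.0, 28.0 and 28.9 CPM with liraglutide (log2 fold change -0.23, SE 0.09, adjusted p = 0.999). In all 3 regions the highest liraglutide library was below the lowest PBS library. Of the members tested, 3 of 29 were apart in this direction in atria, 2 of 30 in infarcted LV and 3 of 30 in non-infarcted LV. In the other direction 4, 3 and 3 were apart. The labels do not say whether libraries of different regions come from the same animals, so the regions may not be independent. The fit of all 18 libraries gave Cspg4 an adjusted p = 0.0499 in atria, where it ran from 0.0499 to 1 over all alternatives.

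In infarcted LV the smallest p was that of Steap4 (chr5:7960457-7982213, plus strand), with 128, 141 and 143 CPM in PBS and 163, 155 and 223 CPM in liraglutide libraries. All 3 liraglutide values were higher, most of all replicate 3 (log2 fold change 0.40, SE 0.11, adjusted p = 0.577; without a filter on low counts adjusted p = 0.0268, and 0.0268 to 1 over all alternatives). Lmod1 had 3.29, 3.43 and 4.21 CPM with PBS and 5.90, 4.02 and 6.33 CPM with liraglutide, which overlapped (log2 fold change 0.61, adjusted p = 0.851). Smtn had 215, 204 and 209 CPM with PBS and 197, 167 and 178 CPM with liraglutide, lower with liraglutide in all 3 libraries (log2 fold change -0.20, adjusted p = 0.932).

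In non-infarcted LV, Mcam had 64.7, 75.2 and 69.5 CPM with PBS and 63.3, 61.2 and 62.0 CPM with liraglutide, all 3 lower (log2 fold change -0.19, SE 0.08, adjusted p = 0.999). Aoc3 had 15.7, 16.7 and 12.7 CPM with PBS and 16.8, 18.9 and 18.5 CPM with liraglutide, all 3 higher by a narrow gap (log2 fold change 0.24, adjusted p = 0.999). Smtn had 187, 199.9 and 171 CPM with PBS and 164, 153 and 187 CPM with liraglutide, which overlapped (log2 fold change -0.16, adjusted p = 0.999). All 3 differences missed the threshold after correction.

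Among the pathway lists the genes with the smallest p in atria were Klf4 (log2 fold change -0.59), an SRF antagonist in smooth muscle, and Vcl (0.25), Pdgfa (-0.40) and Pdgfc (-0.20), Hes1 (-0.38) and Hey1 (0.46), Pde3a (0.37) and Nos2 (0.90), and Rock2 (0.31) and Ppp1r12a (0.33). Their adjusted p ran from 0.486 to 0.888. In infarcted LV they were Pdlim7, Flna, Pdgfa, Pdgfc, Jag2, Notch2, Nos3, Vasp, Rock2 and Itpr1, with log2 fold changes from -0.60 (Pdgfc) to 0.21 (Notch2). In non-infarcted LV they were Tpm1, Pdlim7, Pdgfa, Pdgfd, Jag2, Hes1, Nos3, Vasp, Abcc8 and Rock2, from -0.28 (Nos3) to 0.18 (Abcc8). None passed in either ventricular region.

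Whether the region differences depended on treatment was tested as an interaction over 12 libraries each. For infarcted against non-infarcted LV 0% of 13325 genes passed, and the members with the smallest p were Steap4 (liraglutide minus PBS, log2 difference 0.44, SE 0.16, unadjusted p = 0.0124) and Mylk (-0.21, SE 0.13). For atria against non-infarcted LV 0% of 13871 passed, with Mustn1 (-0.80, SE 0.25, unadjusted p = 0.00548) and Myocd (0.91, SE 0.34, unadjusted p = 0.0221) first among the members. At an unadjusted p under 0.05 there were 255 and 602 genes in the 2 tests. Without atria with liraglutide replicate 3 Myocd passed the atrial one (log2 difference 1.16, adjusted p = 0.0319, with 0.0319 to 1 over all alternatives). A call made with one treatment and not with the other, such as that of Ppp1r14a or Myocd in the infarct comparison, is therefore not shown to differ between treatments.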

How the data were processed

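RNA of 18 heart samples was sequenced from stranded libraries of polyadenylated RNA, per the labels' protocols. The authors deposited raw counts per gene symbol. STAR 2.7.9a, DESeq2 and the mm10 build were used per the submitters' processing notes, and how reads were counted, with or without strand and on which annotation, is not given in the sources used here. Antisense or overlapping neighbours may therefore share reads. Totals ran from 4280459 to 21853482 counts, and a count of 3 equals 0.137 to 0.701 CPM. Within groups no library repeated another: the chi-square per degree of freedom over the 18 pairs was 2.55 to 58.96. Pairs across groups were not compared.

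Each comparison was fitted on its 6 libraries, and each interaction on 12, with edgeR 4.0.16 in R 4.3.3 (filterByExpr, TMM factors, robust quasi-likelihood F tests, Benjamini-Hochberg over all genes tested, threshold 0.05). The SE was obtained by dividing the size of the log2 fold change by the root of F. The alternatives were DESeq2 1.42.0, RLE factors, library totals, no filter and a stricter filter (CPM of 1 in 3 libraries). Further ones were all 18 libraries, a replicate block and single omissions. The model was also run on simulated counts with the same spread setting for every gene and library. The real genes and libraries differ in spread, so that run does not show how well the test works on them. Figures were drawn with matplotlib 3.10.9. Gene positions and exon lengths are from GENCODE vM21 on GRCm38.

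The members and lists were chosen with earlier results of these data known. All members are named. Every library is given for the 4 members with the largest mean fold change in each direction among those called in both treatments, for Myh11 and Acta2, and, for liraglutide against PBS, for the 4 with the smallest p. Each pathway list is represented by up to 4 called genes, or by the 2 of lowest p if none was called. A gene that this rule names is not reported here, though the list counts include it. The labels number the regions of a treatment alike. Same-numbered libraries deviated together in infarcted against non-infarcted LV (r 0.15 to 0.154 with PBS, 0.101 to 0.136 with liraglutide). They also did in atria against non-infarcted LV with PBS (0.114 to 0.151). The replicate block was fitted as an alternative in all 7 comparisons, including those without such correlation. The main tests were unpaired throughout.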

Additional observations from a re-analysis of the deposited data

How the results depend on the processing

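The region differences of the members held under most alternatives: no called member changed sign under any of them, infarcted against non-infarcted LV lost at most 4 of 20 calls with PBS and 3 of 22 with liraglutide, and atria against non-infarcted LV at most 1 of 21 and 3 of 22. Each of these 4 comparisons gained at most 2 calls under any alternative. In infarcted against non-infarcted LV, 2 members fell with PBS, 1 with all 18 libraries in the fit and 1 to 2 with single omissions. With liraglutide the single omissions gave 1 to 2. Acta2 in atria with PBS ranged from -0.13 to 0.44 on the log2 scale under single omissions.

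Liraglutide against PBS depended on the processing. In atria the 1 called gene became 118 with DESeq2 (2 members higher, 1 lower), 3 with no filter and 94 with all 18 libraries in the fit (2 members lower). The count was 0 with library totals and 80 without both liraglutide replicate 3 and PBS replicate 2 (1 member higher). Liraglutide replicate 1, which also held ventricular Myl2, stayed in that fit. Single omissions gave 0 to 105 (0 to 1 member higher), the 105 without liraglutide replicate 3. In infarcted LV the 0 became 1 with DESeq2, 35 with no filter (1 member higher) and 0 to 3 with single omissions. In non-infarcted LV it became 2, 5 and 0 to 2. The atrial interaction gave 24 genes with DESeq2 and, in omissions added after seeing the data, 0 to 55, with 0 to 1 member higher. Library totals, also added after seeing the data, turned the sign of 10 uncalled values, 6 of them in liraglutide against PBS in atria. The cause of these differences was not tested.

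With the replicate block, liraglutide against PBS in atria called 0 genes, and the block changed no member call other than the 3 given in the report. Liraglutide and PBS libraries of a region share only a replicate number. The correlations of same-numbered libraries were -0.346 to 0.106 in atria, -0.112 to -0.0588 in infarcted LV and -0.134 to 0.158 in non-infarcted LV. In atria against non-infarcted LV with liraglutide they were -0.0405 to 0.00757. The labels number these atrial and LV libraries alike, so their low correlations cannot decide whether same-numbered libraries come from the same animal. Depth limited Trpc6, at 48 counts over all libraries, and Actg2.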
